A study of Mus musculus with 16 samples.

Results

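Liver and lung metastases of mouse pancreatic cancer were compared by ATAC-seq, a transposase assay that reads out open chromatin, while Smad4 was held off. The members are the 5 Smad4-off metastasis samples of the 16 samples in the series, 2 from the liver (Liv_OFF) and 3 from the lungs (Lung_OFF), chosen by their labels and table columns. Each came from its own mouse. The tumor cells derived from KC-shSmad4 mice, which carry Ptf1a-Cre (active in the pancreatic lineage), a Rosa26 LSL-rtTA3-IRES-mKate2 reporter and a doxycycline-inducible, GFP-linked hairpin against Smad4 at Col1a1, so that doxycycline (Dox) turns Smad4 off. Both groups share all of these alleles and the drug. The model was made with 2 hairpins from male embryonic stem cells of mixed C57BL/6J;129 background, and which hairpin or cell line gave which sample is not stated. Hosts were female athymic Foxn1 nu mice aged 6 to 8 weeks, fed Dox chow, that lack mature T cells but retain other host cells. For Liv_OFF, 400000 cells were injected into the spleen, which was then removed; for Lung_OFF, 250000 cells were injected into the tail vein. Dox withdrawal in the matched arms fell at 5 weeks for the liver and 6 weeks for the lungs, and the table's columns name day 14 for liver and day 15 for lung, so organ, route, cell number and time of growth cannot be told apart. From each tumor 60000 mKate2+ cells were sorted.

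Open chromatin marks the promoters and enhancers that transcription factors can reach, and in a tumor the set of open enhancers largely mirrors cell identity. Pancreatic ductal adenocarcinoma cells range from epithelial states, held by factors such as Grhl2, Elf3 and the HNF family and glued together by tight and adherens junctions, to mesenchymal states marked by Zeb, Twist and Prrx factors, collagens and fibronectin. Accessibility is not expression: a peak that opens at a gene shows that its DNA could be reached, not that its RNA rose.

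Values are normalized read counts per peak, and 26848855 to 28609955 reads fell in peaks in Liv_OFF and 28221663 to 35374595 in Lung_OFF. Replicates correlated at a Spearman value of 0.964 in the liver and 0.888 to 0.943 in the lungs. Lung_OFF_1 stood apart on chromosome 6 from 124 Mb to the end, a stretch of 2411 peaks: its median log2 deviation there from the mean of all 16 samples was 1.86, against −0.25 to 0.40 in the other lung samples and −0.50 and −0.19 in the liver. In that stretch 930 peaks were called lower in the liver with this sample and 515 without it, so results there are given both ways. The share of reads in promoter peaks was 48.0% and 49.0% in Liv_OFF and 41.3% to 44.7% in Lung_OFF, and moves with every promoter result below; its part in them was not tested.

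The sorted cells were checked against cell type markers. All 10 tumor epithelium markers, among them Epcam, Krt19 and Cdh1, had a peak at their start site, and their summed counts were 61780 and 62428 in the liver and 26754, 40117 and 31378 in the lungs, with 9 start sites called higher in the liver. Of 17 hepatocyte markers, 14 had no peak at their start site, Alb, Apoa1, Fgb and Cyp2e1 included, and the summed count of the remaining 3 was 290 to 362 in the liver and 654 to 735 in the lungs. Of 16 alveolar and airway markers, 8 had none, including Sftpc, Scgb1a1 and Nkx2-1, and the other 8 summed to 4638 and 4938 in the liver and 2694 to 3155 in the lungs. Leukocyte markers had start-site peaks at 4 of 15 genes, without Ptprc and Spi1, with sums of 758 and 1102 in the liver and 825 to 982 in the lungs. Endothelial markers had them at 5 of 12, without Pecam1, with sums of 139 and 156 in the liver, 900 in Lung_OFF_1 and 190 to 250 in the other lung samples. Fibroblast and stellate cell markers had them at 8 of 12, with 1815 and 1937 in the liver and 2172 to 2951 in the lungs. Thus the defining hepatocyte and alveolar start sites were not in the peak set, while tumor epithelium sums were lower and endothelial and fibroblast sums higher in the lungs, both most of all in Lung_OFF_1. The part of these sums in the results below was not tested.

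Sequences are shown for the 8 distal peaks named below, to let a reader see the DNA behind the largest fold changes. Each line holds the central 200 bases on the plus strand of GRCm38 (mm10). Capitals mark matches, on either strand, to the motif letters of AP-1 (TGANTCA), KLF (CCNCNCCC), TEAD (CATTCCA) or grainyhead-like factors, GRHL (AACCNGTT); RUNX (TGTGGTT), HNF4 (CAAAGTCC), FOXA (TGTTTAC), ETS (CCGGAAG) and HNF1 were searched too. The first 4 were open in the liver: an intron of Tiam1 (chr16:89954560-89954759), an intron near Vill (chr9:119010466-119010665), an intron of Galnt18 (chr7:111701922-111702121) and an intron of Ephb2 (chr4:136779670-136779869).
Tiam1: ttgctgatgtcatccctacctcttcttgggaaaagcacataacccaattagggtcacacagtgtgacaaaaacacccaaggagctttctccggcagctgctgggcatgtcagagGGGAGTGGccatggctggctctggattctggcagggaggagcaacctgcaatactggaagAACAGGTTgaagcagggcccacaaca
Vill: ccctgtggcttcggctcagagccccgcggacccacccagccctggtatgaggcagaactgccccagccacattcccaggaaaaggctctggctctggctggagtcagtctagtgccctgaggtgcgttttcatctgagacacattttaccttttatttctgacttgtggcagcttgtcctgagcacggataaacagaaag
Galnt18: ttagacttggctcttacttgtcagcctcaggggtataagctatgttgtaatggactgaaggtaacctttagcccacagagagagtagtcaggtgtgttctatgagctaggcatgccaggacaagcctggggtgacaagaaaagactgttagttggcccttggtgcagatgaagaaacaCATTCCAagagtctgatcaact
Ephb2: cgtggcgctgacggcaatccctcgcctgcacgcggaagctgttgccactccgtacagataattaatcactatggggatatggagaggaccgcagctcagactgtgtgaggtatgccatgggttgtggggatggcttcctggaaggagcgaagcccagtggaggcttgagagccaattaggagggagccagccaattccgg
The next 4 were open in the lungs: an intron of Dlg2 (chr7:91689983-91690182), an intergenic site near Igfbp1 (chr11:7194486-7194685), an intergenic site near Mgp (chr6:136892171-136892370) and an intron of Hhip (chr8:80055775-80055974). Introns and intergenic sites were placed by protein-coding genes alone, so overlap with noncoding transcripts was not checked.
Dlg2: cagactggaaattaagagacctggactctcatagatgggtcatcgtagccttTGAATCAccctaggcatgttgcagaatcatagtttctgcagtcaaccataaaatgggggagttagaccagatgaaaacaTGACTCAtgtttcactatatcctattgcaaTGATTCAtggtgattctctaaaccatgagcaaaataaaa
Igfbp1: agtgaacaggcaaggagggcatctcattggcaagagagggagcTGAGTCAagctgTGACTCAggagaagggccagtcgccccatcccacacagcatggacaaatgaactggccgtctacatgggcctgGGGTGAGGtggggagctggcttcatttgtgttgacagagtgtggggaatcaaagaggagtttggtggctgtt
Mgp: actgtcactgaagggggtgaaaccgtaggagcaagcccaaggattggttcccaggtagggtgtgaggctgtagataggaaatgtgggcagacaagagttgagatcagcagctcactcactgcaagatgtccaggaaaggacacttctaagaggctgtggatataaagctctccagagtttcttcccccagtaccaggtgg
Hhip: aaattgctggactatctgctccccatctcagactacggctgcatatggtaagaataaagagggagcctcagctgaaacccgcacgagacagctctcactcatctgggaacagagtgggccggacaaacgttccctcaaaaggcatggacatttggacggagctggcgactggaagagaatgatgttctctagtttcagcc
The Dlg2 window held 3 AP-1 matches and the Igfbp1 window 2, while 4 of the 8 windows, at Vill, Ephb2, Mgp and Hhip, held none of the letters searched. In the central 200 bases of all 136630 nuclear peaks, an AP-1 match stood in 28.1% of peaks, in 15.6% of those higher in the liver and in 44.8% of those lower there. GRHL letters stood in 1.68% of all peaks, 2.86% of the higher and 1.07% of the lower ones. For KLF the shares were 20.9%, 25.0% and 15.4%, and for TEAD 5.09%, 5.48% and 5.04%. These are letter matches in windows of peaks whose base content also differed, and are given as a description. Over the whole peak the median GC was 46.7% in the higher peaks and 44.4% in the lower.

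To see how far the organs differed with Smad4 off, every nuclear peak was tested with limma. A peak was called when the log2 fold change, liver over lung, was 0.58 or more in size with a Benjamini-Hochberg adjusted p no larger than 0.1. Of all nuclear peaks 22.9% were higher in the liver and 26.8% lower (49.7% in all), and replicates did not overlap at 65.9%. Differences were large as well as many: 7563 of the higher peaks (24.2%) and 12658 of the lower ones (34.6%) differed at least 4-fold. The peaks lower in the liver were low in absolute terms there, with a median count of 18.4 in Liv_OFF against 72.0 in Lung_OFF and 63.7 in Panc_OFF, the pancreas tumors with Smad4 off (n = 3). Those higher in the liver had a median of 118 there, 40.2 in the lungs and 37.4 in the pancreas. At 3878 lower peaks both liver samples held 3 reads or fewer, and at 487 higher peaks all lung samples did.

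The directions were placed differently in the genome. At promoters (peaks up to 1000 bp from a protein-coding start), 3182 of 14785 peaks were higher in the liver (21.5%) and 931 lower (6.30%), whereas 29.3% of peaks elsewhere were lower. Intergenic peaks were lower in 31.1% and higher in 21.7%, and intronic peaks in 27.7% and 24%. The higher peaks lay a median of 20.1 kb from a start site and the lower ones 44.8 kb, and 29.4% of the lower ones had no protein-coding start within 100 kb, against 15% of the higher ones. The promoter median log2 fold change was 0.40 where that of all peaks was 0.00. The balance at promoters moved with scaling: 77.4% of promoter calls were higher in the liver as deposited, 65.0% after correction for GC content and 64.4% after quantile normalization, and the promoter median itself was 0.19 and 0.11 in those settings. Promoter values below, as deposited, are to be read against 0.40.

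The promoters that differed most in favor of the liver included genes known from epithelial cells. Rab25, a small GTPase of epithelial recycling endosomes (chr3:88548074-88548876), had 176 and 347 normalized counts in Liv_OFF_1 and Liv_OFF_2 and 7.36, 12 and 6.89 in the lung samples. The log2 fold change was 4.71 ± 0.63 (SE; limma adjusted p = 6.62e-05). Defb1, an epithelial antimicrobial peptide, had 173 and 378 against 13.8, 13.0 and 4.31. Foxn1, an epithelial transcription factor of skin and thymus whose mutation defines the host strain, had 133 and 339 in the tumor cells of the liver and 6.44, 13.0 and 6.03 in those of the lungs. Rbbp8nl and Ankrd65 were alike in pattern, Rbbp8nl (80.2 and 177 against 5.52, 1.09 and 3.45) and Ankrd65 (174 and 373 against 13.8, 9.78 and 7.75). The Panc_OFF means at these promoters were as low as those of the lungs, 4.47 to 12.4.

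Distal peaks went further, from almost no reads in the lungs to well-filled peaks in the liver. An intronic peak of Ephb2, an ephrin receptor of epithelial sorting (chr4:136779111-136780428), had 215 and 504 in the liver and 11, 3.26 and 3.45 in the lungs, a log2 fold change of 5.76 ± 0.63. An intronic peak assigned to Vill, a villin-like actin regulator (chr9:119010260-119010872), had 135 and 316 against 5.52, 1.09 and 1.72. In Tiam1, an activator of the GTPase Rac1 that acts at epithelial junctions, an intronic peak (chr16:89954381-89954939) had 72.8 and 181 in the liver and 0, 2.17 and 0.862 in the lungs. The Galnt18 peak had 65.4 and 224 against 2.76, 0 and 2.58. With so few lung reads the fitted fold changes of these last peaks depend on the pseudocount: Tiam1 gave 6.00 with 1 and 3.52 with 10, and Galnt18 5.68 and 3.5. All 9 of these named peaks higher in the liver had more counts in Liv_OFF_2 than in Liv_OFF_1, by 1.97 to 3.43 times. That the groups do not overlap at these peaks was a condition of their choice.

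**Figure D1:**
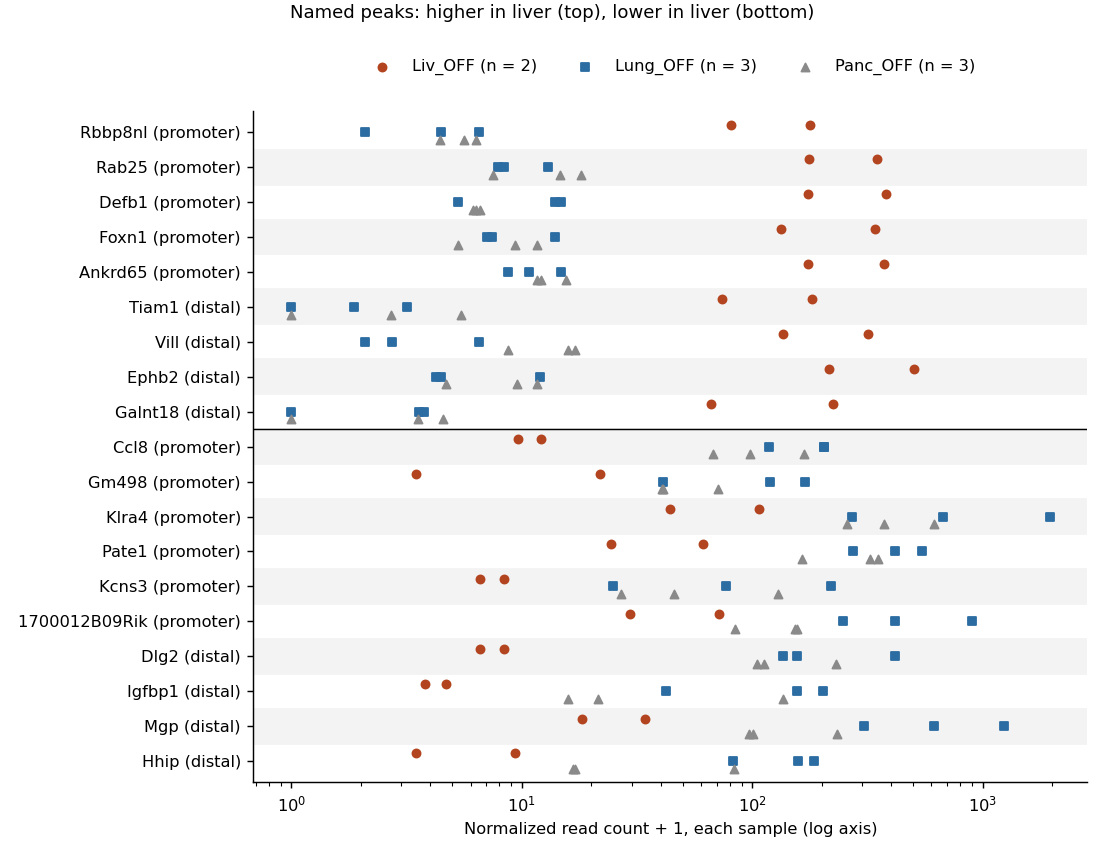
Normalized read count plus 1 (log axis) of the 19 named peaks in each Liv_OFF (2 circles), Lung_OFF (3 squares) and Panc_OFF sample (3 triangles). Liver and lung points do not overlap in any row. In the upper 9 rows Panc_OFF means were 2.05 to 12.9. There Panc_OFF points overlap those of the lungs except at Vill, where Panc_OFF (7.69, 16.1 and 14.8) lies above the lungs (5.52, 1.09 and 1.72).

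The promoters lowest in the liver relative to the lungs were a less uniform set. Ccl8, a monocyte-attracting chemokine (chr11:82115723-82116437), had 8.64 and 11.1 in the liver and 203, 117 and 204 in the lungs (log2 fold change −3.98 ± 0.45; limma adjusted p = 2.45e-05). Kcns3, a silent potassium channel subunit, had 7.41 and 5.57 against 219, 23.9 and 75.8. Pate1 had 23.4 and 59.9 against 543, 274 and 415, and 1700012B09Rik 28.4 and 71.1 against 897, 246 and 414. Gm498 had 2.47 and 20.9 against 169, 40.2 and 119. Klra4, of the Ly49 receptor cluster whose copies are near-identical and can share reads, lies in the stretch of chromosome 6 that stood apart in Lung_OFF_1 and had 43.2 and 106 against 1951, 674 and 271. Its log2 fold change was −3.37, or −2.64 (limma adjusted p = 0.0046) without that sample.

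The distal peaks lower in the liver included secreted and signaling genes. A peak 15301 bp from Mgp, which encodes matrix Gla protein (chr6:136891124-136893418), had 17.3 and 33.4 in the liver and 1236, 616 and 304 in the lungs. It lies in the same stretch of chromosome 6, and its log2 fold change of −4.62 was −4.11 without Lung_OFF_1 (limma adjusted p = 0.000167). The peak 2876 bp from Igfbp1, which encodes a binding protein of insulin-like growth factors, had 3.70 and 2.79 against 201, 41.3 and 156. The intronic peak of Hhip, which encodes a decoy receptor that restrains Hedgehog ligands (chr8:80055365-80056384), had 2.47 and 8.36 against 184, 81.5 and 157 (log2 fold change −4.56 ± 0.79). The Dlg2 peak had 7.41 and 5.57 against 416, 156 and 135. Of these 10 named peaks 9 were highest in Lung_OFF_1 and 7 lowest of the lung samples in Lung_OFF_2. Panc_OFF means at these peaks ran from 37.9 at Hhip to 414 at Klra4.

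Beyond single peaks, a minority of loci leaned mostly 1 way. Among 4655 genes with 8 peaks or more, 159 had at least 75% of their peaks higher in the liver and 153 at least 75% lower, while 3241 had calls in both directions and 28 had none. Tiam1 stood out, with 28 of 31 peaks higher and none lower and a median log2 fold change of 3.46 over the locus. Shroom3, which drives apical constriction of epithelial cells, had 34 of 49 higher and none lower. Rapgef5 had 28 of 39 and none, Map7, a microtubule protein of epithelia, 23 of 30 and 1, Palld, an actin-bundling protein, 32 of 55 and 2, and Mecom, a transcriptional regulator, 34 of 79 and 7. Without Lung_OFF_1 Mecom had 22 higher, and the other loci of this group 20 to 30.

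On the lung side stood Cd44, the hyaluronan receptor, with 30 of 46 peaks lower in the liver and 2 higher. Its called peak with the smallest p, in an intron (chr2:102870529-102877396), had a mean of 830 in Liv_OFF and 2131 in Lung_OFF (log2 fold change −1.36 ± 0.11; limma adjusted p = 9.03e-06). Rbfox1, a neuronal splicing factor in a very long gene, had 25 of 27 lower and none higher. Frmd4a, a polarity scaffold, had 33 of 50 lower and 1 higher, and Dst, a hemidesmosomal linker protein, 26 of 49 and 3. Lmntd1 (30 of 38 lower) and Rassf8 (24 of 41 lower) lie in the chromosome 6 stretch, and without Lung_OFF_1 their lower peaks fell to 16 and 9.

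Runs of neighboring peaks all called in the same direction were then listed. Runs of 10 peaks or more numbered 92 higher in the liver and 127 lower. The longest lay on chr14:74094847-74598851, a 504.0 kb stretch beside the serotonin receptor gene Htr2a, with 31 peaks in a row lower in the liver. Its mean count was 11.3 and 12.6 in the liver and 81.6, 40.6 and 80.0 in the lungs. A run of 21 lower peaks (chr10:120552668-120647559) lay next to Hmga2, an architectural chromatin protein of embryonic and mesenchymal cells, with 74.8 and 84.7 against 277, 200 and 272. F13a1 and Ly86 shared a run of 19, and a run of 20 on chromosome 6 (chr6:144638397-144726536) had no assigned gene and kept 19 of its calls without Lung_OFF_1. The longest runs higher in the liver were 19 peaks near Stt3b (chr9:115355936-115658892), with 143 and 160 against 38.8, 58.0 and 56.1, and 18 peaks over Pitx1, a homeobox factor, and H2afy (chr13:55895402-56114071), with 112 and 142 against 37.2, 43.6 and 30.4. The next were 16 peaks at 1700015G11Rik and 16 on chromosome 12 with no assigned gene. In the chromosome 12 run the pancreas samples, at 115 to 154, lay with the liver.

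**Figure D2:**
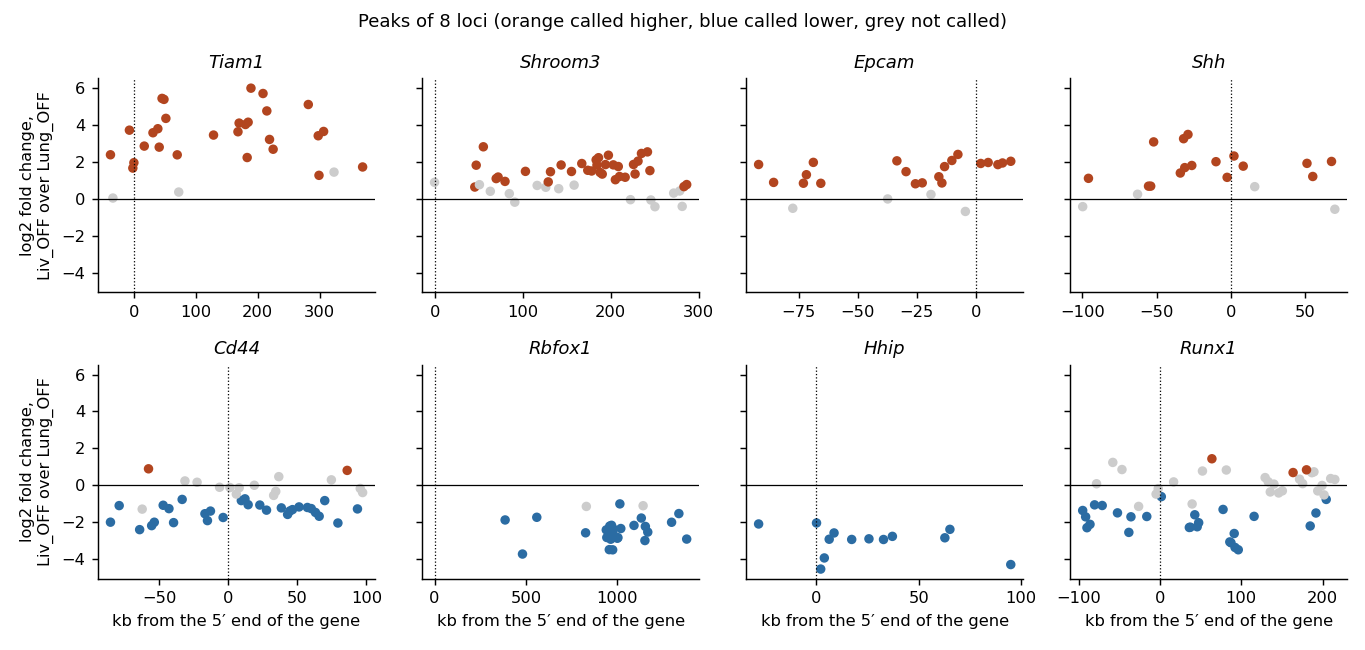
The log2 fold change, liver over lung, of each peak assigned to 8 loci against its distance in kb from the 5′ end of the gene (dotted line), colored by call. Tiam1, Shroom3, Epcam and Shh have no peak called lower, Rbfox1 and Hhip none called higher, and Cd44 and Runx1 have 30 and 26 lower peaks beside 2 and 3 higher ones.

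Gene programs were described through 27 lists, each with the peaks nearest its genes. Part of the junction lists follows pathways that the study had drawn from single cells of the same tumor model, so their direction is not independent evidence. Epithelial identity leaned furthest to the liver: of 196 peaks at 20 genes, 122 (62.2%) were higher and 22 lower, where 22.9% and 26.8% of all peaks were, and the median log2 fold change was 1.00. At start sites 19 of 20 genes were higher and none lower, where 20.8% and 5.14% of all 13353 start-site peaks were. Esrp1, the epithelial splicing regulator, had 1871 and 2367 in the liver and 296, 424 and 277 in the lungs (log2 fold change 2.68 ± 0.25; limma adjusted p = 9.23e-06). Grhl2, a master factor of epithelial enhancers, had 391 and 963 against 85.6, 57.6 and 43.1, with 18 of its 27 peaks higher. Elf3, an epithelial ETS factor, had 8304 and 8488 against 2516, 4206 and 2989, with 10 of 10 peaks higher, and the protease inhibitor gene Spint1 had 3083 and 3171 against 527, 1010 and 711. Sox9, the ductal progenitor factor, was the 1 start site not called: its values of 3063 and 2838 against 3010, 3061 and 3087 overlapped, and 10 of its 21 peaks were lower.

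Junction genes followed the same direction. Of 309 peaks at adherens junction and desmosome genes 150 were higher and 33 lower, with 15 of 20 start sites higher and none lower. Epcam, the epithelial adhesion molecule, had 2244 and 2534 against 480, 851 and 614 (log2 fold change 1.92 ± 0.21), and 20 of its 24 peaks were higher. Nectin4 had 111 and 279 against 12, 14.1 and 9.48. Nectin2 (log2 fold change 0.79) and Jup, which encodes plakoglobin (0.83), were open in both organs and fell short of the threshold after quantile normalization. At tight junction and polarity genes 171 of 411 peaks were higher and 55 lower, and 18 of 28 start sites were higher and none lower. The claudin Cldn4 had 1386 and 2970 against 331, 453 and 463, and Cldn7 1212 and 1410 against 164, 367 and 249. The polarity genes Llgl2 and Crb3 followed at 1.20 and 1.11 (log2), and Epb41l4b had 18 of 24 peaks higher. Pard3, a polarity scaffold, had 14 of 44 peaks lower and 7 higher, where 26.8% and 22.9% of all peaks were.

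Basal and squamous genes were higher in the liver too, from a low level. Of 125 peaks 62 were higher and 24 lower (13 lower without Liv_OFF_1). Krt5, a basal keratin, had 552 and 1115 at its start site against 35.9, 58.7 and 28.4 (log2 fold change 4.29 ± 0.44; limma adjusted p = 1.52e-05), with 7 of 7 peaks higher. Krt17 had 87.6 and 138 against 13.8, 5.43 and 3.45, and Serpinb5, which encodes maspin, 504 and 784 against 107, 160 and 80.1. Sox15, a SOX factor of stratified epithelium, had 368 and 676 against 139, 126 and 128. The start site of Trp63, the master gene of this lineage, was almost closed at 18.5 and 34.8 against 2.76, 2.17 and 0, and its locus split into 13 higher and 7 lower peaks. Sox2 in the same list went the other way, 44.4 and 61.3 against 227, 70.6 and 81.0, a call that was lost without Lung_OFF_1 or without Liv_OFF_1 (log2 fold change −1.05, then −0.53 and −0.82).

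Gastric, endodermal and metabolic programs leaned to the liver. Of 120 gastric and mucin peaks 51 were higher and 17 lower (11 lower without Liv_OFF_1), with 12 of 18 start sites higher and 1 lower. Psca, a gastric surface antigen, had 1164 and 1030 against 302, 561 and 399, and Muc4 421 and 326 against 72.7, 148 and 69.8. Capn8 and Sult1c2 rose by 1.89 and 1.5 (log2) at their start sites, and Agr2 had 3 lower peaks of 14. Of 247 peaks at endoderm and pancreas factors 90 were higher and 38 lower, with 58 higher without Liv_OFF_1 and 22 lower without Liv_OFF_2. Foxa1, a pioneer factor, had 2106 and 2721 against 781, 1092 and 1002, and Hnf4a, a hepatic and intestinal master factor, 216 and 230 against 36.8, 64.1 and 36.2 (log2 fold change 2.31 ± 0.35). Hnf4g was higher by 0.89 and had 12 of 21 peaks higher. Gata6 had 6 higher and 7 lower peaks of 27, and its start site, 2167 and 1978 against 1557, 2006 and 1925, was not called. Lipid and lipoprotein genes had 122 of 271 peaks higher and 52 lower, with Pparg, the fat-storage nuclear receptor, at 1358 and 1191 against 571, 634 and 587, and Abcg8, a sterol exporter, at 580 and 485 against 68.1, 211 and 69.8. Ppara (0.95) and Dgat2 (0.67, lost without Liv_OFF_2) were also called, while Ppargc1a had 8 of 15 peaks lower.

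Transport and detoxification genes did likewise. Of 281 peaks at ductal ion and bicarbonate transport genes 128 were higher and 40 lower (26 lower without Liv_OFF_2), with 11 of 19 start sites higher and 1 lower. The carbonic anhydrases Car9 (1676 and 1645 against 696, 882 and 767) and Car2 (2029 and 1814 against 624, 1050 and 842) and the sodium pump subunit Atp1b1 (4571 and 4727 against 1395, 2657 and 1965) separated the organs, as did the exchanger Slc9a4 at 2.25 (log2). The bicarbonate transporter gene Slc4a4 had 10 of 24 peaks lower. Antioxidant and xenobiotic genes had 92 of 252 peaks higher and 44 lower. Abcc3, a bile salt and drug exporter, had 1309 and 1276 against 245, 459 and 272 (log2 fold change 2.04 ± 0.24). Gpx2 and Nqo1, which detoxify peroxides and quinones, were higher by 2.08 and 2.11, and Cyp1b1 had 10 of 21 peaks lower.

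**Figure D3:**
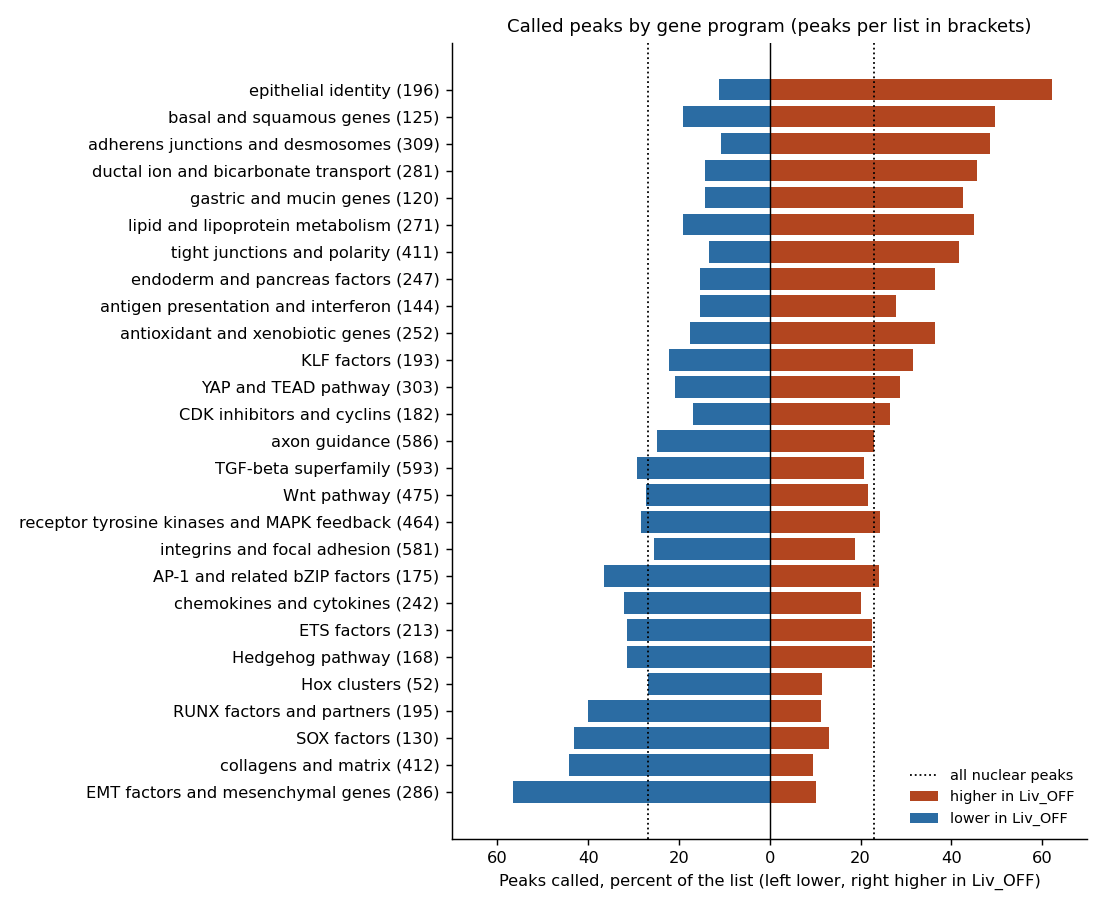
Percent of the peaks of each of 27 gene lists called higher (right, orange) or lower (left, blue) in Liv_OFF, ordered by median log2 fold change, with the number of peaks in brackets and dotted lines at the shares of all nuclear peaks (22.9% and 26.8%). Epithelial identity reaches 62.2% higher and EMT factors and mesenchymal genes 56.6% lower.

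Mesenchymal genes went the other way. Of 286 peaks at EMT factors and mesenchymal genes 162 (56.6%) were lower in the liver and 29 higher (18 higher without Liv_OFF_1), and the median log2 fold change was −1.04. At start sites 5 of 18 were lower (27.8%, where 5.14% of all start-site peaks were) and 1 higher. Twist2, an EMT factor, had 317 and 240 against 1022, 728 and 974 (log2 fold change −1.70 ± 0.26; limma adjusted p = 0.000159), with 13 of 19 peaks lower. Axl, a receptor kinase of mesenchymal tumor cells, had 421 and 507 against 840, 726 and 763. S100a4 differed by −0.62, a call lost without Lung_OFF_1, without Lung_OFF_3 or without Liv_OFF_1. The start site of Cd44 was not called (1802 and 1691 against 1964, 1841 and 1945; log2 fold change −0.13 ± 0.12, adjusted p = 0.388 by limma) although 30 of its peaks were lower. Nt5e, which encodes the ectonucleotidase CD73, was mixed, with 9 higher and 12 lower peaks and a start site higher in the liver by 0.78.

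Matrix genes divided by type. Of 412 peaks 182 were lower in the liver and 39 higher, with 12 of 25 start sites lower and 4 higher. Collagen VI start sites were less open in the liver: Col6a1 had 109 and 106 against 606, 527 and 619 (log2 fold change −2.43 ± 0.24; limma adjusted p = 1.21e-05) and Col6a2 133 and 98.9 against 476, 397 and 467, with 10 of 14 and 10 of 10 peaks lower. Tnc, which encodes the matrix protein tenascin-C, had 21 of 29 peaks lower. The laminin-332 genes of epithelial basement membrane went the other way, Lama3 with 1321 and 1817 against 221, 394 and 269 and Lamb3 with 2015 and 2590 against 462, 845 and 587. Integrin and focal adhesion genes had 109 of 581 peaks higher (18.8%) and 149 lower (25.6%), where 22.9% and 26.8% of all peaks were. That balance turned to 125 and 122 under the replicate block with GC correction. Itgb3, the beta-3 integrin of vitronectin receptors, had 156 and 125 against 531, 265 and 430 and 14 of 14 peaks lower. Itgb6 and Itga3, integrins of epithelial cells, were higher at their start sites by 2.01 and 0.76.

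**Figure D4:**
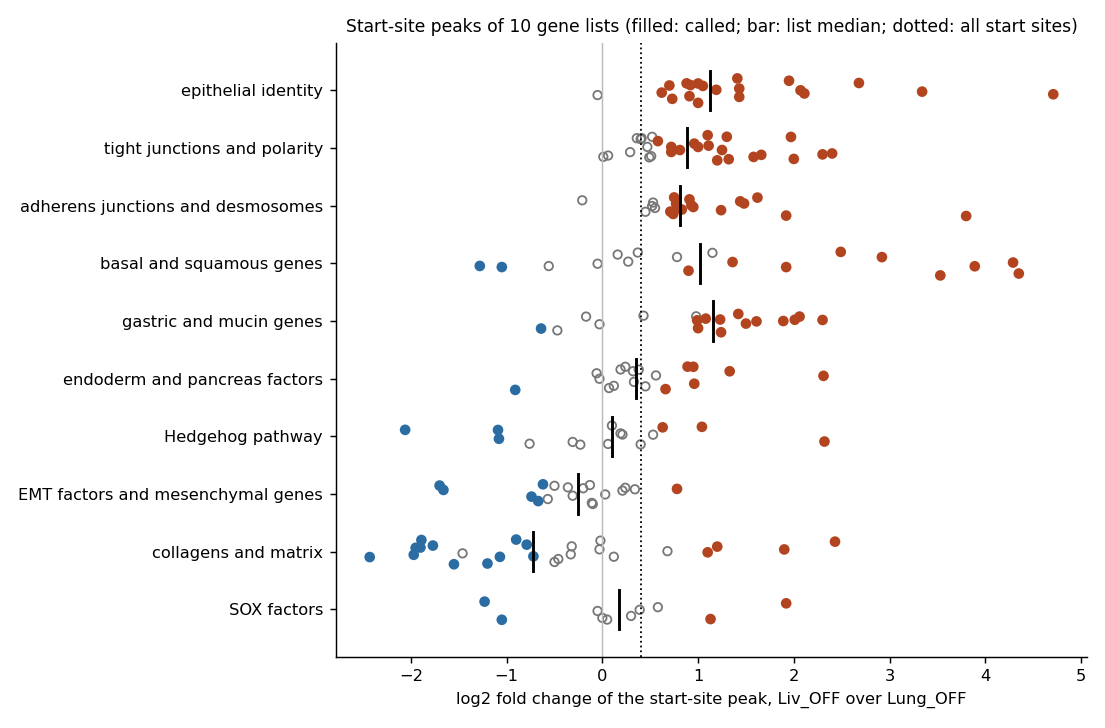
The log2 fold change, liver over lung, of the start-site peak of each gene in 10 lists (filled points called, open points not called, black bars the list medians, dotted line the median of all start-site peaks, 0.40). Epithelial identity has 19 called points to the right and collagens and matrix 12 to the left and 4 to the right.

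Transcription factor families were read at all their peaks and at their start sites, which over all genes were called less often (26% of start-site peaks against 52.3% of peaks outside promoters). RUNX factors and partners had 78 of 195 peaks lower and 22 higher. Runx3 was lower at its start site, 179 and 177 against 602, 471 and 562 (log2 fold change −1.60 ± 0.24), with 17 of 25 peaks lower and none higher. Runx1 had 26 of 54 peaks lower and 3 higher, while its start site was uncalled at 3358 and 3249 against 2410, 2702 and 2373 (0.41 ± 0.10, at the median of all start sites). KLF factors had 61 of 193 peaks higher (31.6%) and 43 lower (22.3%). Klf4 had 8 of 20 higher and 4 lower with 4452 and 5198 against 3213, 3691 and 3423 at its start site (0.49 ± 0.09, not called), and Klf5 12 of 23 higher and 1 lower. Klf6 had 11 of 33 lower and 5 higher. Klf11, Klf10 and Klf9 were called higher at their start sites (0.78, 0.67 and 0.71) and lost the call after GC correction and after quantile normalization. Klf9 and Klf10 lost it without Lung_OFF_1 as well (0.57 each) and Klf10 without Liv_OFF_2 (0.55). SOX factors had 56 of 130 peaks lower and 17 higher, but 35 lower without the chromosome 6 stretch, where Sox5 lies. Sox5 had 21 of 25 peaks lower, or 16 without Lung_OFF_1. ETS factors had 67 of 213 lower (31.5%) and 48 higher (22.5%, or 31 peaks without Liv_OFF_2). Ets1 had 21 of 31 lower and Ets2 13 of 27 higher. AP-1 and related genes had 64 of 175 peaks lower and 42 higher, although 6 of 15 start sites were higher and none lower. Bach2, a repressor of this class, had 24 of 46 lower, and Fos 9 of 18 higher.

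The Hedgehog list held opposite loci. Shh, a ligand, had 373 and 561 at its start site against 77.3, 101 and 95.6 (log2 fold change 2.32 ± 0.28; limma adjusted p = 4.03e-05), with 16 of 20 peaks higher and none lower. Ihh, a further ligand, had 1746 and 1733 against 666, 1090 and 833. Hhip, their inhibitor, had 65.4 and 66.9 against 348, 174 and 356, with 13 of 13 peaks lower. Over all 168 Hedgehog peaks 38 were higher (22.6%) and 53 lower (31.5%), where 22.9% and 26.8% of all peaks were.

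Other signaling lists, apart from YAP and TEAD genes, were close to the shares of all peaks (22.9% higher and 26.8% lower). TGF-beta superfamily genes had 123 of 593 peaks higher (20.7%) and 173 lower (29.2%). Within the family, Id1 and Id3, targets of BMP signaling, were more open in the liver (8775 and 10070 against 3930, 5557 and 4754 for Id1), the receptor gene Tgfbr2 had 15 of 28 peaks higher, and Ltbp1, a latent TGF-beta binding protein of the matrix, 18 of 49 lower. Wnt genes had 103 of 475 higher (21.7%) and 129 lower (27.2%). Fzd5 was higher at its start site (5440 and 5344 against 2968, 3694 and 3200), whereas Lgr5, a stem cell receptor (501 and 421 against 1033, 1018 and 1251), Wnt7b and Dkk2, a Wnt inhibitor with 19 of 26 peaks lower, were lower. Axon guidance genes had 134 of 586 higher (22.9%) and 146 lower (24.9%), or 93 lower without Liv_OFF_2. Receptor kinase and MAPK feedback genes had 113 of 464 higher (24.4%) and 132 lower (28.4%). The balances of both lists turned with the settings given under the processing limits. In them Ephb2 had 15 of 16 peaks higher and Nrp2 21 of 35 lower, and Erbb3, a receptor of epithelial cells, had 3632 and 3423 against 1267, 1802 and 1430 while Nrg1, its ligand, had 16 of 34 peaks lower. YAP and TEAD genes had 87 of 303 higher (28.7%) and 63 lower (20.8%), or 41 lower without Liv_OFF_2. Among them Wwc1 had 19 of 27 higher and Tead1 17 of 47 lower.

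Immune genes were mixed. Chemokine and cytokine genes had 49 of 242 peaks higher (20.2%) and 78 lower (32.2%), where 22.9% and 26.8% of all peaks were. Il1a had 301 and 287 against 41.4, 97.8 and 49.1, and Ccl28 231 and 212 against 21.2, 63.0 and 35.3. Ccl20 had 485 and 323 against 93.9, 216 and 159, while Tslp had 9 of 14 peaks lower. Antigen presentation and interferon genes had 40 of 144 higher (27.8%) and 22 lower (15.3%), and 18 and 19 peaks at stricter thresholds. The class I genes H2-K1 and H2-D1, close paralogs, were higher by 0.82 and 0.69. Irf8, a factor of myeloid and B cells, was lower (110 and 167 against 573, 281 and 309) with 8 of 13 peaks lower. Hox genes were sparse, with 14 of 52 peaks lower (26.9%, or 7 peaks without Liv_OFF_2) and 6 higher (11.5%). Hoxa2 had 1.23 and 1.39 against 125, 10.9 and 29.3. Hoxa13, at the far end of the cluster, had 1166 and 1067 against 450, 588 and 456. Of 182 peaks at CDK inhibitor and cyclin genes 48 were higher (26.4%) and 31 lower (17.0%, or 20 peaks without Liv_OFF_1). Cdkn1a (4181 and 4343 against 2715, 2921 and 2545) and Cdkn1c (469 and 575 against 287, 366 and 342) were higher by 0.65 each. Both lost that call after GC correction, and Cdkn1c lost it without Lung_OFF_1 (0.55) or Liv_OFF_2 (0.51).

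Start sites and the other peaks of a gene were compared for 4116 genes with 8 peaks or more. Where more of the other peaks were lower than higher in the liver (1916 genes), the start site was lower at 247, uncalled at 1470 and higher at 199. Where more were higher (1849 genes), it was higher at 680, uncalled at 1154 and lower at 15. The uncalled shares were 76.7% and 62.4%, where 70.5% of these 4116 start sites and 74% of all start-site peaks were uncalled. In the first set 10.4% of start sites were higher and 12.9% lower, and in the second 36.8% and 0.811%. Of all 4116 start sites 23.0% were higher and 6.54% lower, so the called counts are to be read against that lean. Cd44, Runx1, Bach2 and Nrp2 were among the loci with more lower peaks and an uncalled start site.

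The same peaks were then read in other mice, whose liver and lung metastases had Smad4 restored by Dox withdrawal (Liv_ON, n = 2; Lung_ON, n = 3). Of the 31293 peaks higher in the liver with Smad4 off, 21108 (67.5%) were called higher there too, where 17.6% of all peaks were, and of the 36598 lower ones 20835 (56.9%) were called lower, where 18.2% were (35.8% called in either direction). Their median log2 fold changes were 1.435 and −1.688 with Smad4 off, the comparison that picked them, and 1.18 and −1.08 with Smad4 restored. At 15 peaks the calls went in opposite directions. All 9 named peaks higher in the liver were called again, at 4.56 to 5.63, and 6 of the 10 lower ones, which ran from −2.88 to −0.88. Rab25 had means of 282 in Liv_ON and 7.22 in Lung_ON, and Mgp 19.1 and 129. The difference between the Smad4 states in the gap from liver to lung was tested directly. Here limma called 0 peaks, with 7171 (5.25%) at an unadjusted p under 0.05, edgeR called 0 and DESeq2 48. The restored comparison rests on few samples, and its 48889 calls fell to 18467 without Liv_ON_2. It was fitted together with the Smad4-off comparison, with a spread shared over all 16 samples, so their calls are not independent.

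**Figure D5:**
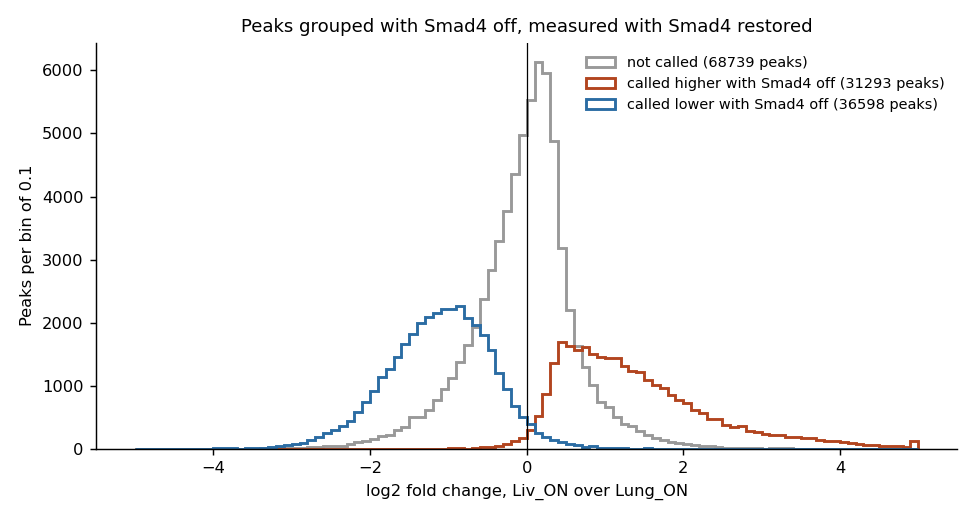
Number of peaks by log2 fold change between Liv_ON and Lung_ON (Smad4 restored), for peaks called higher (31293), lower (36598) or neither (68739) with Smad4 off; values beyond the axis are counted in its end bins. The higher peaks center at a median of 1.18, the lower ones at −1.08 and the uncalled ones at 0.03.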

How the data were processed

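ATAC-seq libraries of sorted mKate2+ cells were analyzed; groups came from the sample titles. Per the submitters' processing notes and the study's methods, the authors trimmed reads (Trim Galore, cutadapt), aligned them to mm10 with Bowtie2, kept MACS2 peaks at P ≤ 0.001 off the blacklist, merged peaks within 500 bp over all samples, and counted reads with featureCounts. The deposited values are a signal: read counts per peak divided by each sample's DESeq2 size factor. Transposase shift and duplicate removal are not given in the sources used here; unremoved duplicates would shrink apparent counting error. Such scaling would mislead if most peaks differed between groups. Whole reads were recovered from 100% of values (within 0.1 of 1 read); the mitochondrial row (1.43% to 3.56% of reads in these samples) was left out, leaving 136630 peaks with no filter. Counts of single samples show no spread between mice. The SE and limma p-values rest on the spread between mice within groups, estimated over all 16 samples, pancreas and restored ones included.

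limma 3.58.1 (R 4.3.3; trend, robust) was fitted to log2(normalized count + 1) over all 16 samples with 6 group means, and adjusted over all peaks. Such fold changes understate the change of low peaks. Peaks went to the nearest protein-coding start site within 100 kb (GENCODE basic vM21); start-site and promoter peaks lie within 1000 bp. Assignment does not show that a peak acts on the gene. Coordinates are 1-based; sequence came from GRCm38.p6 (RefSeq).

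The members, the 27 program and 6 marker lists and the tests were chosen with earlier results of these data known. Named were the 6 promoter and 4 distal peaks per direction with the largest called fold changes (replicates not overlapping, higher group at 100 counts or more, 1 peak a gene); the 6 genes per direction with the largest surplus of called peaks (8 peaks or more); the 4 longest runs per direction (gaps up to 100 kb); and, in each list, up to 4 genes by p of a called start-site peak, the genes with most called peaks each way and Klf4, Runx1, Cdkn1c, Col6a1 and Id1. Some items that this rule picks are not reported here. Replicate numbers did not pair the organs (correlations of deviations −0.156 and −0.0711). Replicates differed beyond sampling noise (chi-square per degree of freedom 4.44 to 17.9). Alternatives were a pseudocount of 10, a mean count of 20 or more, TMM factors, quantile normalization, edgeR 4.0.16, DESeq2 1.42.0, thresholds of 1 and 0.05, only the groups compared, the replicate block, a GC correction, both, leaving out each sample, and leaving out distal chromosome 6. edgeR on the recovered reads called 67881 peaks and shared 97% of the calls made by limma. The fit was also run on simulated reads with 200 changed peaks and the same spread setting for all peaks and samples. Far more peaks were called in the real data, so that run cannot speak to the scaling.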

Additional observations from a re-analysis of the deposited data

How the results depend on the processing

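The count of 67891 called peaks stayed within 1.5 times under every alternative: 49003 with thresholds of 1 and 0.05, 66160 with the replicate block, 66343 with the GC correction, and 52350 to 72973 when 1 sample was left out. The replicate block, whose numbers do not pair the organs, moved no count of calls by over 1.5 times and ended the call at the start sites of Vcl, Ets2 and Tead3 alone among those named. Promoter peaks higher in the liver numbered 3182, but 1740 after quantile normalization and 1225 with the stricter thresholds, and 2366 to 4198 without 1 sample; those lower numbered 931, 593 with the stricter thresholds and 713 to 1095 without 1 sample. The restored comparison gave 18467 (without Liv_ON_2) to 48699 calls without 1 sample, and the difference between Smad4 states 0 to 5, and 48 in DESeq2 (added after seeing the data, as was edgeR there). List balances (higher minus lower) turned for integrins under the replicate block with GC correction (3); for axon guidance after quantile normalization (4), only the groups compared (16), the GC correction (23), both with the replicate block (27) and without 1 sample (range −35 to 16); for receptor kinases after quantile normalization (5), the GC correction (23 with and 27 without the replicate block) and without Liv_OFF_1 (1, in a range from −14 without Lung_OFF_2); and for antigen presentation with the stricter thresholds (−1). The SOX list had 35 lower peaks in place of 56 without distal chromosome 6. All 338 values of the 20 peaks picked by size of change kept direction and call. Of 2328 values at 137 named start sites, 208 lost and 16 gained the call and none changed sign while called; the cause was not tested. With 2 liver samples, leaving 1 out assumes that the other varies like the remaining groups.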
